A study of Mus musculus with 7 samples.

Results

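The miRNAs of the imprinted Dlk1-Dio3 locus were examined in mouse kidney. Members were taken by name: a fixed list gave 41 names, and 39 of them matched a miRNA name on the array, which measured 696 mouse miRNAs. The remaining names, miR-412 and miR-539, did not match, and the array held miR-412-3p and miR-539-5p under these longer names. Neither was detected on any array.

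Total RNA came from kidneys of male C57BL/6 mice, 9 to 12 weeks old, collected 28 days after surgery. The animals had either unilateral ureteral obstruction (UUO), in which the left ureter is tied off and the kidney becomes fibrotic, or a sham operation in which the ureter was exposed and left untied. The deposited labels call 3 arrays treated (replicates 1, 3 and 4) and 4 arrays non-treated (replicates 1 to 4), with 1 array for each sample. The labels do not say which of these names stands for the obstructed kidney, and do not state that each sample was a separate animal, so p-values measure only the spread between these samples.

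The Dlk1-Dio3 locus is an imprinted domain, in which genes are read from the copy inherited from 1 parent. The maternal copy gives long noncoding RNAs, Meg3, Rian and Mirg, and a large set of miRNAs that lie within and between them. The paternal copy gives the protein genes Dlk1, a Notch-like surface protein, Rtl1, a retrotransposon-derived gene, and Dio3, which inactivates thyroid hormone. These miRNAs are known to be high in embryo, placenta and brain and low in most adult tissues. A miRNA guides a repressor complex to messenger RNAs that pair with its seed, and miRNAs with different seeds have different sets of targets.

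All 39 members matched a RefSeq hairpin on chromosome 12 of GRCm38.p6, on the plus strand, as 34 hairpins spread over 163.6 kb from chr12:109580233 to chr12:109743795. Of these hairpins, 7 lay between the start of Meg3 and Rian, 2 within Rian and 25 beyond it. The hairpins with at least 1 arm detected on any array numbered 4, 0 and 12 in these stretches. The first group lies opposite Rtl1, in which miR-127, miR-433 and miR-434 are read antisense to its coding sequence. The last group, from miR-379 to miR-410, reaches into Mirg.

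A mature sequence was found in RefSeq for 36 of the 39 members. The sequences below are those of the detected members for which it was found, in order along the locus, because the comparisons rest on them. Capitals mark the seed, bases 2 to 8 from the 5′ end. The first set is from the Meg3 side.
miR-337-3p: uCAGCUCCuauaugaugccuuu
miR-337-5p: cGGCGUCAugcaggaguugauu
miR-127: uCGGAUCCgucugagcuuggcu
miR-434-3p: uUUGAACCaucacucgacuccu
miR-434-5p: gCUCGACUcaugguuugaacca
miR-136: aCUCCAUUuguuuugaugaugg

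The next set is from the stretch beyond Rian.
miR-379: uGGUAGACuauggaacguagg
miR-411: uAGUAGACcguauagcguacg
miR-329: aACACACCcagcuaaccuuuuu
miR-494: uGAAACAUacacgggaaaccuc
miR-495: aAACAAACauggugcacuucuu
miR-376a: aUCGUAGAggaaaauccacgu
miR-300: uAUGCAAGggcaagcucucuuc
miR-382: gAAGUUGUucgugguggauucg
miR-154: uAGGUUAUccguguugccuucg
miR-377: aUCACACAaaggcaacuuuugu
miR-410: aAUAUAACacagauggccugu

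The member miR-376c was also detected. The 36 sequences held 36 different seeds, so no seed was shared, also between miR-379 and miR-411 or between both arms of a hairpin. The detected and the undetected members were alike in base composition: the median GC content was 45.5% over 17 detected members (36.4% to 59.1%) and 47.8% over 19 undetected ones (23.8% to 68.2%).

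A hairpin can give a member from each side of its stem. Mir127, at chr12:109592846-109592915, gives miR-127, a member detected on all 4 arrays labelled non-treated and on none labelled treated. Mir434 (chr12:109594506-109594599) and Mir337 (chr12:109585789-109585885) are the hairpins with both arms detected. Capitals mark the mature arms in each.
Mir127: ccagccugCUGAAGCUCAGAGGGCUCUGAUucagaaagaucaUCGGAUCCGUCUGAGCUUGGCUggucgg
Mir434: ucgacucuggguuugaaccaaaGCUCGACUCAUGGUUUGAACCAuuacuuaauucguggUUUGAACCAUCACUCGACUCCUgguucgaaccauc
Mir337: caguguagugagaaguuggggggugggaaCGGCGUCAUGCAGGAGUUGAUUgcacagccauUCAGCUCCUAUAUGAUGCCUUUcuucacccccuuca

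Since the maternal transcripts begin at Meg3, its promoter window is shown as context for members that were high or low together. The window runs from 250 bases before the annotated start to 50 after it, at chr12:109540746-109541045 on the plus strand of GRCm38.p6. Capitals mark a match to TGACGTCA, the cyclic AMP response element, and a match to TATAAA, the TATA box.
Meg3 promoter: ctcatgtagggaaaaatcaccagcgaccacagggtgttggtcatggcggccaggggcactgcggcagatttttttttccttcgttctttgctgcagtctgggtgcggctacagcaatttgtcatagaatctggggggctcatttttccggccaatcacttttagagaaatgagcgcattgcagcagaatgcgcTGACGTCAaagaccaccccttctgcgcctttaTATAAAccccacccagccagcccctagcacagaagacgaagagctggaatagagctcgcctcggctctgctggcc

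Searched on both strands, TGACGTCA occurred in 1.79% and TATAAA in 13.6% of the 32851 promoter windows of this length in the reference. The matches describe the letters of this window only.

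The arrays differed in brightness along with their labels. Over the 186 miRNAs that all 7 arrays detected, the log2 signal averaged 7.40, 7.52, 6.65 and 7.40 on non-treated replicates 1 to 4, and 6.05, 6.42 and 5.79 on treated replicates 1, 3 and 4. The arrays labelled non-treated detected 268, 282, 232 and 259 miRNAs, and those labelled treated 203, 214 and 193. Arrays of a group correlated at 0.989 or more and arrays of different groups at 0.933 or less, so no array sat with the other label. Within its group, non-treated replicate 3 correlated at 0.989 with each array, and the rest at 0.995 to 0.997 among themselves. With the arrays labelled treated it correlated at 0.928 to 0.933, and the rest of its group at 0.913 to 0.921. Non-treated replicate 3 was the dimmest of its group.

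About as large a share of the members as of all miRNAs was detected on any array, 18 of 39 (46.2%) against 290 of 696 (41.7%), but 17 of the 18 were seen on the arrays labelled non-treated alone. At least 1 array labelled treated detected 1 of the 18 members and 216 of the 290. Non-treated replicates 1, 2 and 4 detected 18, 18 and 17 members, and non-treated replicate 3 detected 3. Each of the 3 arrays labelled treated detected 1 member, miR-494. The groups did not overlap, but non-treated replicate 3 was nearer to the arrays labelled treated than to the rest of its own group. By median, the arrays labelled treated detected 16.5 fewer members.

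**Figure D1:**
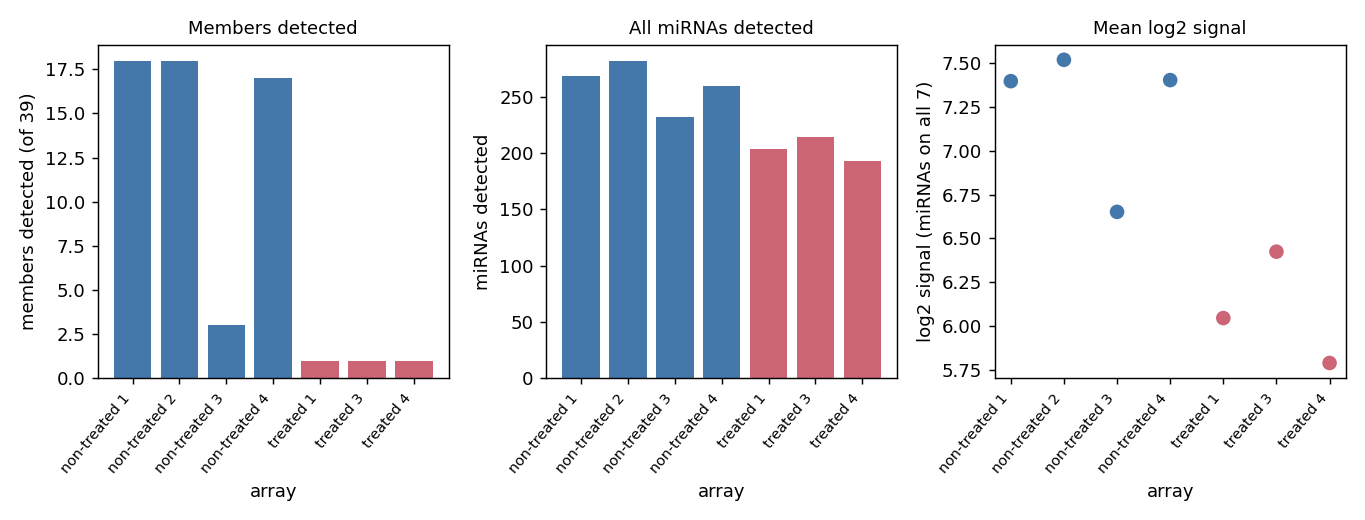
The number of members detected (left, of 39), the number of all miRNAs detected (centre) and the average log2 signal over the 186 miRNAs that every array detected (right) are plotted for each array, blue for non-treated and red for treated. Non-treated replicate 3 has 3 members where the others of its group have 17 or 18, while its number of all miRNAs, 232, lies between the groups.

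Over the members, 21 of 39 were detected on no array, as were 385 of the 657 other miRNAs. A further 14 were detected on 3 of 4 arrays labelled non-treated and on none labelled treated: miR-136, miR-154, miR-300, miR-329, miR-337-3p, miR-337-5p, miR-376a, miR-376c, miR-377, miR-382, miR-410, miR-411, miR-434-3p and miR-434-5p. The array missing was the same each time, non-treated replicate 3. The member miR-495 was detected on non-treated replicates 1 and 2. The members miR-127 and miR-379 were detected on all 4 arrays labelled non-treated and on none labelled treated, and miR-494 on all 7.

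**Figure D2:**
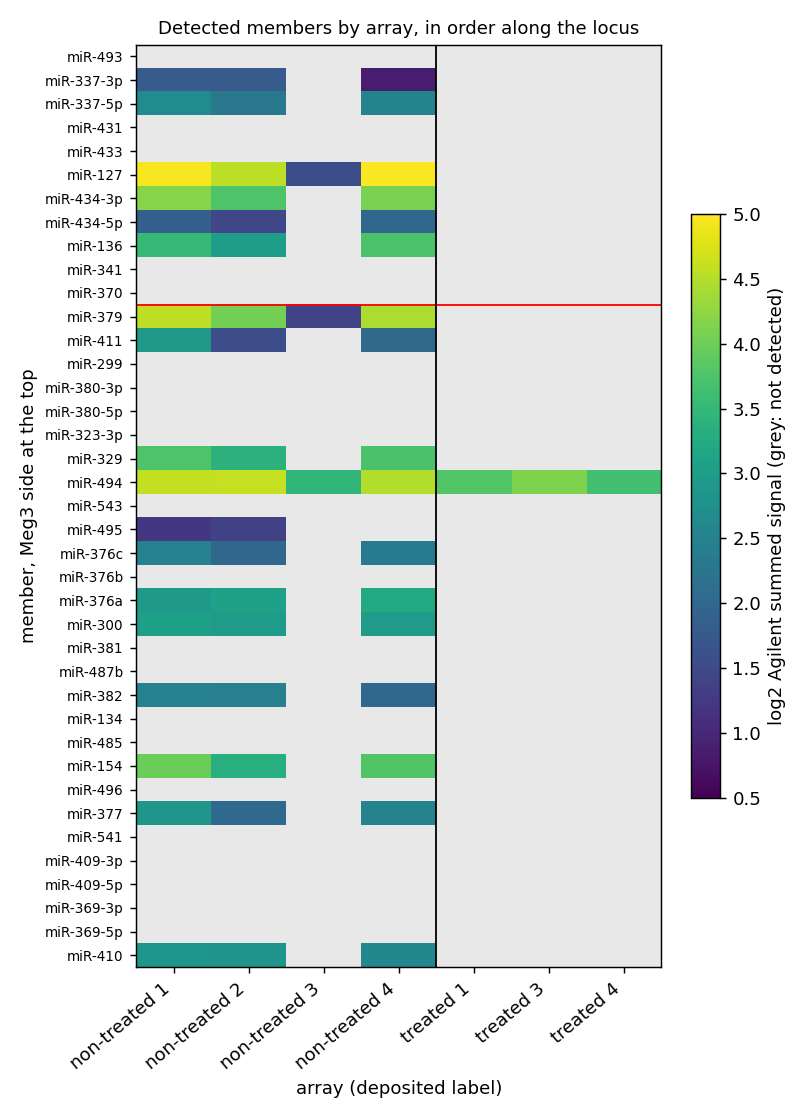
Rows are the 39 members in order along the locus (the red line parts those on the Meg3 side from those beyond Rian), columns are arrays, and colour is the log2 Agilent summed signal where the miRNA was detected. Detected members lie in both stretches, and only miR-494 has a signal on the arrays labelled treated.

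Smaller shares of the other miRNAs lost detection. Of the miRNAs detected on non-treated replicates 1, 2 and 4, non-treated replicate 3 detected 227 of 237 others (95.8%) and 3 of 17 members (17.6%). At least 1 array labelled treated detected 207 of the 237 others (87.3%) and 1 of the 17 members (5.88%). These members were fainter than the others to begin with. The Agilent summed signal averaged over non-treated replicates 1, 2 and 4 had a median of 8.02 over the 17 members (2.91 to 28.6). Over the 237 others it was 49.3 (1.29 to 26296). Replicate 3 and the arrays labelled treated were also the dimmer arrays as a whole. The part of either in the loss of detection was not tested.

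The members on the Meg3 side are described first, by the Agilent summed signal, the scanner software's own value for each miRNA. It is not the plain sum of the averaged probe signals, which is used for the scaled signals below. Signals of different members come from different probes and are not set against each other. For miR-127 (mmu-miR-127 on the array), which lies opposite Rtl1, the signal was 30.7, 23.6, 2.96 and 31.4 on non-treated replicates 1 to 4, with an error estimate by the scanner software of 2.74, 2.16, 0.712 and 2.83, and it was not detected on the arrays labelled treated. Non-treated replicate 3 was low and the other 3 high. The neighbouring miR-434-3p gave 18.2, 13.6 and 17.1 on non-treated replicates 1, 2 and 4, and the opposite arm of its hairpin, miR-434-5p, 3.65, 2.76 and 4.05. Both arms were thus missing on the same arrays.

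For miR-136 the signal was 11.5, 8.07 and 13.3 on non-treated replicates 1, 2 and 4. For miR-337-5p it was 6.47, 4.95 and 5.77, and for the other arm, miR-337-3p, 3.46, 3.47 and 1.80. For miR-337-3p, at most 33.3% of the spots of any probe were well above background on these arrays. The remaining members of this stretch, miR-431, miR-433 and miR-493, and those within Rian, miR-341 and miR-370, were detected on no array.

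Beyond Rian, miR-379 (mmu-miR-379), the first of its cluster, gave 23.6, 16.6, 2.64 and 21.8 on non-treated replicates 1 to 4 and was not detected on the arrays labelled treated. Its values followed the same order as those of miR-127 in that non-treated replicate 3 was lowest and replicate 2 next. For miR-154 the signal was 15.8, 10.1 and 13.7 on non-treated replicates 1, 2 and 4, and for miR-329 it was 13.6, 10.4 and 13.1. For miR-376a it was 7.62, 8.48 and 9.40, and for its relative miR-376c 5.66, 3.94 and 5.20. All of these were missing on non-treated replicate 3.

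For miR-300 the signal was 8.20, 7.95 and 7.91 on non-treated replicates 1, 2 and 4, the narrowest spread among the members that 3 arrays detected. On the same arrays miR-377 gave 7.22, 4.09 and 5.72, and miR-382 gave 5.61, 5.47 and 4.00. Again, none of these was detected on non-treated replicate 3 or on an array labelled treated. The signal was 7.26, 7.14 and 6.06 for miR-410 and 7.65, 2.96 and 4.17 for miR-411. The member miR-495 gave 2.35 and 2.59 on non-treated replicates 1 and 2.

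The member miR-494 (mmu-miR-494) was the exception to this pattern. Its signal was 24.1, 24.2, 11.0 and 22.4 on non-treated replicates 1 to 4 and 13.9, 17.6 and 12.6 on treated replicates 1, 3 and 4. Non-treated replicate 3 was below all arrays labelled treated, so the groups overlapped on this scale.

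To compare groups, each array was scaled by its average log2 signal over those 186 miRNAs, and signals below 5.85 on the scaled linear scale (2.55 in log2) were set to that floor, the highest over arrays of the lowest scaled signal of a detected miRNA. All differences are those of the arrays labelled treated minus those labelled non-treated. The study's own list of changed miRNAs has the opposite signs, so which label is the obstructed kidney is not settled here. A miRNA was tested if every array of at least 1 group detected it, which held for 236 miRNAs and for 3 members, miR-127, miR-379 and miR-494. Adjusted p-values are from limma with the Benjamini-Hochberg adjustment over all miRNAs tested, and a call needed one under 0.01.

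None of the members tested was called lower on the arrays labelled treated and 1 was called higher, against 31.8% called lower and 23.3% called higher of all miRNAs tested (55.1% called in all). At an unadjusted p under 0.05, limma put 2 members lower, and the share of all miRNAs under that rule was not taken. The methods' t-test at 0.01, adjusted or not, called 0 lower. Of all 236 miRNAs it called 118 adjusted and 130 unadjusted, in either direction. The median difference of the 3 members, which is the value of miR-379, was -1.30 on the log2 scale, against -0.08 over all 236. The members miR-127 and miR-379 passed the filter only through the arrays labelled non-treated and were at the floor on those labelled treated. This median is therefore a description.

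For miR-127 the log2 scaled signal was 4.93, 4.40, 2.55 and 4.94 on non-treated replicates 1 to 4, and at the floor on all arrays labelled treated. The scaled signal of non-treated replicate 3 was itself just under the floor. The floored difference was -1.66 (SE 0.585, limma adjusted p = 0.0405; exact permutation p = 0.229, two-sided). Taken as a bound, with each non-treated array at its own signal and the treated arrays at the floor, miR-127 was at least 3.13-fold higher on the arrays labelled non-treated.

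For miR-379 the log2 scaled signal was 4.55, 3.90, 2.55 and 4.41 on non-treated replicates 1 to 4, and at the floor on all arrays labelled treated. The floored difference was -1.30 (SE 0.472, limma adjusted p = 0.0443; exact permutation p = 0.229, two-sided), and the bound was at least 2.36-fold. With all treated values at the floor, the SEs and limma p-values of miR-127 and miR-379 hold no spread between arrays labelled treated. Neither difference passed the threshold. Both passed it with the floor at the median over arrays of the lowest detected signal, where the differences were -3.00 for miR-127 and -2.54 for miR-379.

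For miR-494 the log2 scaled signal was 4.58, 4.44, 4.20 and 4.45 on non-treated replicates 1 to 4 and 5.13, 5.10 and 5.21 on treated replicates 1, 3 and 4. Every array labelled treated lay above every array labelled non-treated. The difference was 0.73 (SE 0.0934, limma adjusted p = 3.79e-04; exact permutation p = 0.0571, two-sided, the smallest that 35 splits can give). The direction depended on the scaling: it was -0.42 with no scaling and -0.23 with scaling by spike-in controls, neither past the threshold.

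**Figure D3:**
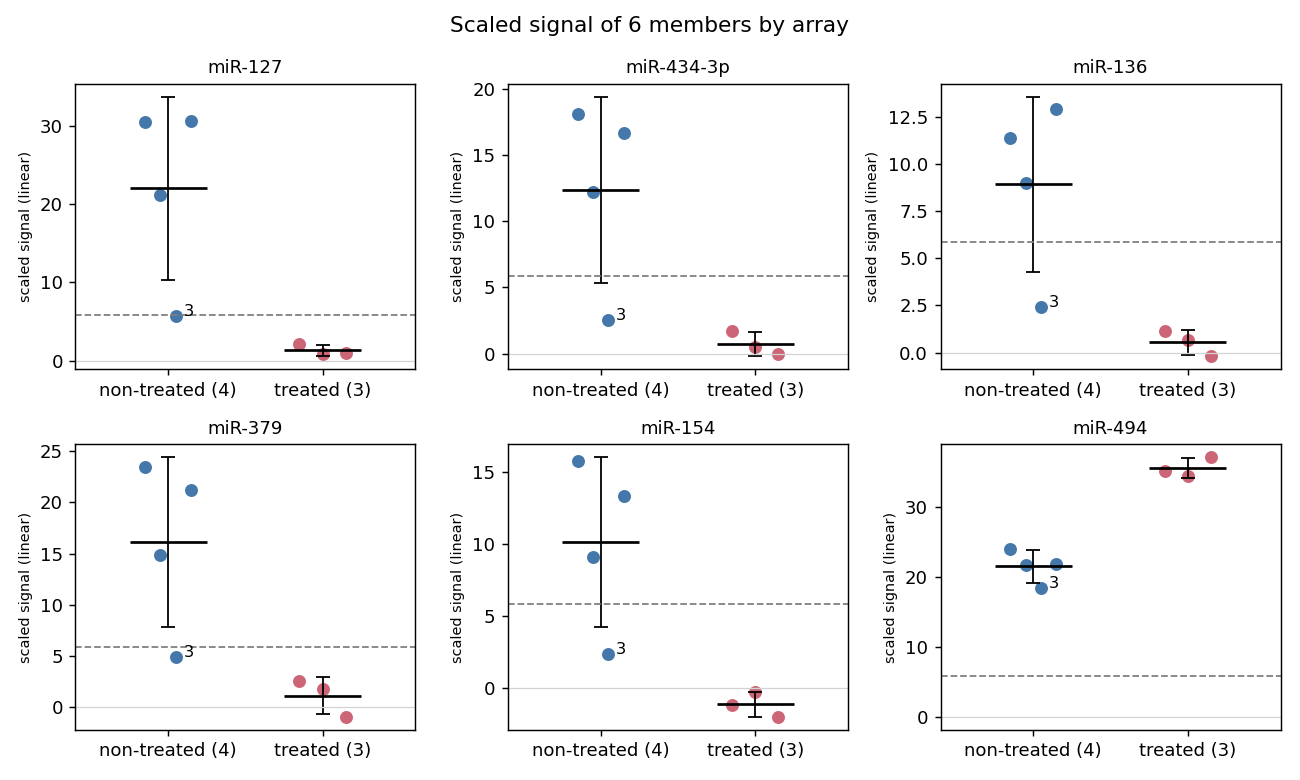
The scaled signal on a linear axis of 6 members is plotted by array, with the group mean and SD (non-treated 4 arrays, treated 3 arrays) and the floor of 5.85 as a dashed line; the point marked 3 is non-treated replicate 3. In 5 of the panels that point and all arrays labelled treated lie below the floor, and in the panel of miR-494 all arrays labelled treated are higher.

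Non-treated replicate 3 was low in the members after scaling as well. Over the 16 members detected on the other 3 arrays of its group (miR-494 left out), its scaled signal was a median of 15.1% of their mean (2.54% to 24.6%). For the miRNAs detected on all 7 arrays the same median was 100.3%, which the scaling itself centres. All scaled signals of the 16 members on replicate 3 and on the arrays labelled treated were below the floor, and 14 of the 16 were not detected on replicate 3, so these percentages are of values near background and give no order against the arrays labelled treated. The probe signals that follow are not scaled, and cover the members detected only on arrays labelled non-treated. Replicate 3 was below the other 3 arrays of its group in 35 of 37 probes. In 34 of 37 probes, these 3 arrays lay above every array labelled treated. The probes that did not were 1 each of miR-337-3p, miR-376c and miR-434-5p, and none of their spots was well above background on any array. Replicate 3 and the arrays labelled treated were dimmer as a whole, and the members were picked here by where they were detected. The probe counts are thus a description, and the same share over all probes of the array was not taken.

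Since 1 array decided these values, the comparison is also given without it. Without non-treated replicate 3, 17 members were tested: 9 were called lower and 1 higher, against 33.9% lower and 23% higher of all 257 miRNAs tested (56.8% called in all). The scaling moved this count: it was 4 with quantile normalization (24.5% of all miRNAs called lower), 5 with scaling to the 75th percentile over all miRNAs (21.4%), 10 with that over detected miRNAs (46.3%), 12 with the mean of all (56.8%), 16 with no scaling (79.8%) and 17 with spike-in scaling (78.2%), and with the last 3 scalings 0 were called higher. The 16 members other than miR-494 passed the filter only through the arrays labelled non-treated, on which they were detected. Their values on the arrays labelled treated were all set to the floor, and the array left out was the one low in these members. Their counts, differences and p-values are therefore a description, and their SEs hold no spread between arrays labelled treated. The 9 called lower were miR-127, miR-434-3p and miR-136 on the Meg3 side and miR-379, miR-329, miR-376c, miR-376a, miR-300 and miR-154 beyond Rian.

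The difference without that array was -2.23 (SE 0.159, limma adjusted p = 1.30e-04) for miR-127, or at least 4.71-fold. It was -1.76 (SE 0.179, limma adjusted p = 5.22e-04) for miR-379, at least 3.39-fold, and -1.42 (SE 0.157, limma adjusted p = 7.22e-04) for miR-434-3p, at least 2.68-fold. The other 6 called lower had differences from -1.11 (miR-154) to -0.49 (miR-376a). The exact permutation test over these 6 arrays cannot give less than 0.1. The 7 not called, miR-337-3p, miR-337-5p, miR-377, miR-382, miR-410, miR-411 and miR-434-5p, had signals so near the floor that their differences were -0.29 to 0. For 4 of the 16 members the bound was under 1 and no fold is given.

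Without the array, miR-494 had a difference of 0.63 (SE 0.0540, limma adjusted p = 2.56e-04). Its call was opposite with no scaling, -0.69 (limma adjusted p = 0.00379), and with spike-in scaling, -0.39 (limma adjusted p = 0.00230), and was lost with the mean of all miRNAs, at 0.07. When the filter was instead set at detection on 3 arrays of a group with all 7 arrays kept, the same 17 members were tested, and 0 were called lower and 1 higher, against 28.8% and 21% of all miRNAs tested (49.8% called in all).

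**Figure D4:**
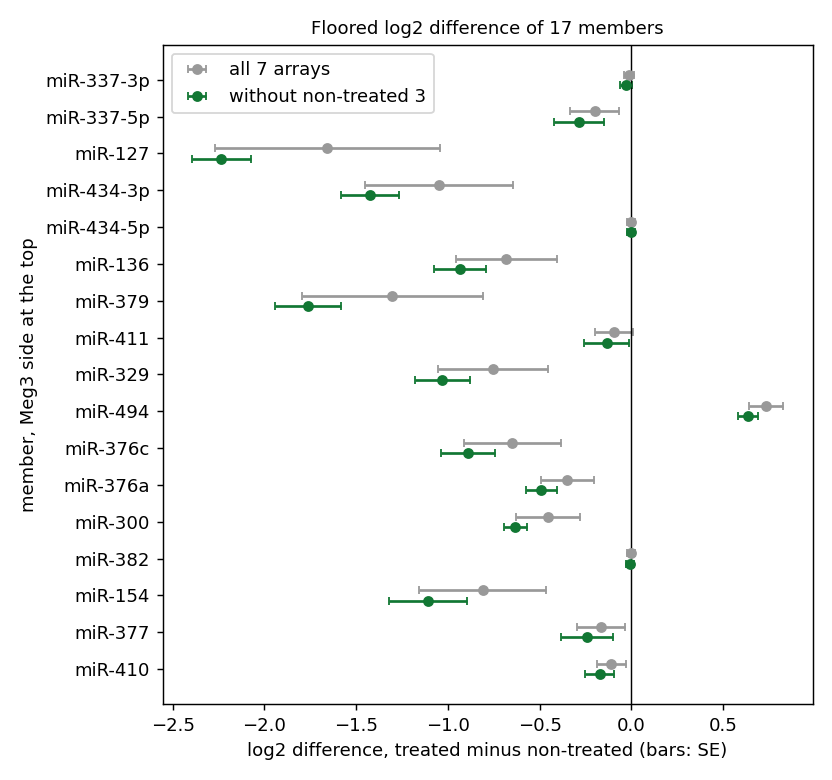
The floored log2 difference (treated minus non-treated) of 17 members with its SE is plotted in order along the locus, with all 7 arrays (grey) and without non-treated replicate 3 (green). Without that array the differences of miR-127, miR-379 and miR-434-3p are -2.23, -1.76 and -1.42. Their error bars are shorter, but for every member other than miR-494 the treated values are all at the floor and add no spread. The difference of miR-494 is above 0 in both under this scaling.

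The array held 37 further miRNAs with a RefSeq hairpin between Dlk1 and Dio3, among them opposite arms of member hairpins, and 35 of them were detected on no array. For miR-299*, the arm opposite the member miR-299, the signal was 19.3, 12.8, 2.14 and 18.0 on non-treated replicates 1 to 4, and it was not detected on the arrays labelled treated. The pattern was that of miR-127 and miR-379, and the difference was -1.07 (SE 0.405, limma adjusted p = 0.0520). The other was miR-3072*, from Mirg, named after its values were seen: its signal was 16.1, 15.5, 11.3 and 15.2 on non-treated replicates 1 to 4 and 3.29, 3.62 and 2.76 on treated replicates 1, 3 and 4. It was lower on the arrays labelled treated by -0.58 (SE 0.110, limma adjusted p = 0.00289), and its signal on non-treated replicate 3 was above that on every array labelled treated. A separate list of 52 further names of this locus, which did not hold miR-3072*, had 31 on the array and 2 detected. These were miR-299* and, on 2 arrays labelled non-treated, miR-1906, which is not among the 37 matched to a RefSeq hairpin. Of this list 1 was tested and 0 passed.

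A list of 9 miRNAs of other imprinted loci was compared. Of these, 3 were detected on any array, 2 were tested, miR-296-5p from the Gnas locus and miR-335-5p from Mest, and 0 passed in either direction, with differences of -0.12 and -0.01.

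Marker lists of other cell types moved with the labels as well, so these values stand beside the members. For the mesenchymal list (6 of 6 detected on every array, among them miR-199a-3p and miR-214 of fibroblasts and mural cells), the log2 summed scaled level was 11.54 to 11.74 on the arrays labelled non-treated and 9.40 to 9.44 on those labelled treated, and 6 of 6 were called lower. For the leukocyte list, 5 of 5 were detected and called lower, with summed levels of 10.12 to 10.51 against 8.13 to 8.25. For the kidney tubule list, 4 of 5 were detected (miR-215 was not), 3 were called higher and 1 lower, with summed levels of 10.66 to 10.94 against 12.43 to 12.46. The red cell list, of which 2 of 3 were on the array, gave 10.08 to 11.19 against 12.17 to 12.32, and 2 of 2 were called higher. In such bulk RNA, fewer cells of a type and less RNA per cell cannot be told apart.

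Non-treated replicate 3 had a summed level of 11.54 for the mesenchymal list (11.57 to 11.74 on the other arrays of its group) and 10.12 for the leukocyte list (10.18 to 10.51), the lowest of its group in both. For the kidney tubule list its summed level was the highest of its group, 10.94 against 10.66 to 10.80, towards the arrays labelled treated. Its log2 scaled signal was 8.18 against 7.22 to 7.43 for miR-192 and 6.28 against 5.69 to 5.85 for miR-194. For miR-30a it was 10.596 against 10.397 to 10.584, near the others of its group. For miR-204 it was 5.57 against 5.35 to 5.46, away from the arrays labelled treated, which were lower. The summed level of the striated muscle list was 5.12 to 5.79 on the other arrays labelled non-treated, 4.12 on replicate 3 and 4.02 to 4.21 on the arrays labelled treated. For miR-1 the log2 scaled signal was 4.01, 4.62, 3.27 and 4.19 on non-treated replicates 1 to 4 and 3.28, 3.24 and 3.38 on treated replicates 1, 3 and 4. For miR-133b it was 3.75, 4.29, 2.55 and 3.45 against 2.55, 2.70 and 2.55. Of the other markers, miR-133a was detected on non-treated replicates 1, 2 and 4 and miR-206 on no array. Of the neuron list, 1 of 2 was detected, miR-9 on 3 arrays of both groups, and miR-124 was not; its summed level was 1.02 to 2.64 on the arrays labelled non-treated and 1.73 to 2.73 on those labelled treated. The part of any of these in the members' values was not tested.

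**Figure D5:**
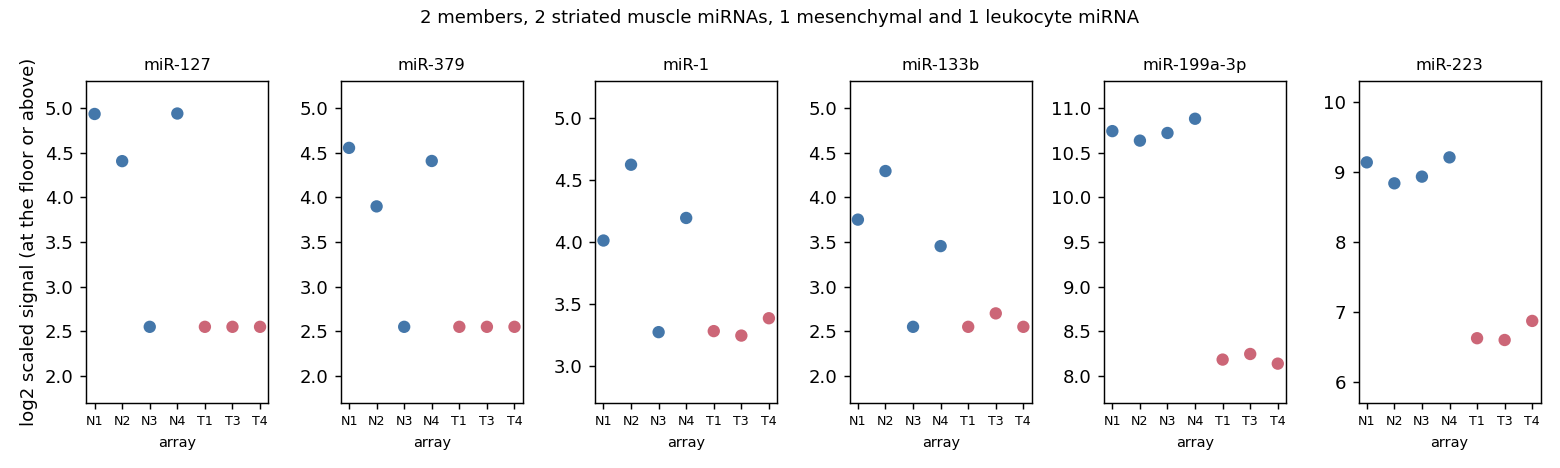
The log2 scaled signal by array (N1 to N4 non-treated, T1, T3 and T4 treated) is plotted for 2 members, the striated muscle miR-1 and miR-133b, the mesenchymal miR-199a-3p and the leukocyte miR-223, each on an axis of its own. In miR-127 and miR-379 the arrays N3, T1, T3 and T4 are all set to the floor, though N3 alone of these detected both members. In miR-1 and miR-133b N3 lies at the level of the arrays labelled treated, and in miR-199a-3p (10.72, against 10.63 to 10.88) and miR-223 it lies with its own group.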

How the data were processed

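Kidney RNA of 7 samples was hybridised to 1-colour Agilent mouse miRNA arrays. The deposited spot intensity was extracted by the authors with Agilent Feature Extraction 10.7.3.1 (per the file headers) and is background-subtracted but not normalized. Each array held 13920 spots of 1937 probes for 696 miRNAs, all arrays shared 1 slide, and no spot was saturated. Signals were averaged over unflagged spots per probe and summed per miRNA, scaled by the average log2 signal over the 186 miRNAs that every array detected, set to a floor of 5.85 and taken as log2. Detection is the scanner software's flag. The fit used limma 3.58.1 in R 4.3.3 (lmFit, eBayes) on 3 arrays labelled treated and 4 labelled non-treated, tested first on simulated data. Precision is limited by how few arrays there were.

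The deposited value table, on a linear scale with no centring, equals the processed intensity of the first spot of each probe on 6 arrays; for treated replicate 4 it equals the error estimate. Its column medians were 0.445, 0.532, 0.470 and 0.346 for non-treated replicates 1 to 4 and 0.322, 0.276 and 1.00 for treated replicates 1, 3 and 4. It served as an alternative only.

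The members and lists were chosen with earlier results of these data known. Every tested member was named, with its signal on each array that detected it, and untested members were named where at least 1 array detected them. Alternatives covered scaling, signal, background correction, floor, filter, test, threshold, blocks and leaving out each array. The filter on 3 arrays of a group and the other scalings without non-treated replicate 3 were chosen after seeing the data. Mature, hairpin and promoter sequences are from RefSeq (GRCm38.p6), with old miRNA names matched to arms by later names.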

Additional observations from a re-analysis of the deposited data

Results flagged for a closer look

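Of 20 sets of values over the 4 arrays labelled non-treated, 6 had an array far from the others by Dixon's ratio (the gap to the nearest array over the whole range, above the critical value), and in each it was non-treated replicate 3, the lowest. Chance gives such a gap in about 5% of sets, and these sets share the same arrays. The ratio was 0.935 for the summed signal of miR-300, 0.906 for that of miR-382 and 0.847 for that of miR-494. It was 0.933 for the number of members detected, 0.859 for the average log2 signal over the miRNAs that every array detected and 0.855 for the mean log2 spike-in signal. The spike-in means were 10.83, 10.76, 10.36 and 10.79 on non-treated replicates 1 to 4 and 10.49, 10.76 and 10.21 on treated replicates 1, 3 and 4.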

How the results depend on the processing

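The differences of miR-127 and miR-379 were below 0 in 27 of 28 alternatives each and 0 with normexp. Both passed the filter through the arrays labelled non-treated and were at the floor on all arrays labelled treated, so this sign was nearly given. Alternatives of the test, adjustment or threshold and the wider filters left the 2 differences unchanged, so the count is a description. That of miR-494 was above 0 in 27 of 29 and reversed in 2, at -0.42 with no scaling and -0.23 with spike-in scaling. The number called lower was 2 with the mean of all miRNAs, no scaling, spike-in scaling, or the floor at the median or the lowest, and 1 with the deposited table without treated replicate 4. In the same order, these called 157, 169, 188, 143 and 143 of all 236 miRNAs and 93 of 239, in either direction. The median of all miRNAs was -0.56, -1.20 and -1.04 with the first 3. The number called higher was 0 with the mean of all miRNAs, no scaling, spike-in scaling, normexp, the deposited table with or without treated replicate 4, Bonferroni adjustment, or a log2 difference of at least 1 required. The median difference was -2.19 with no scaling, -2.24 with spike-in scaling, -2.05 with Agilent's summed signal, 0 with normexp, -0.018 with the deposited table, -2.19 without treated replicate 4 in that table, -2.54 with the floor at the median and -2.67 at the lowest. It was -0.28, 0.73 and -0.35 with the filter at 1 array, all arrays and 3 arrays of a group. Leaving out each array in turn, the number called lower was 0 to 9, the number called higher 1 in each case, and the median -1.40 to -0.49, with the 9 and the -0.49 both without non-treated replicate 3. Of the 236 to 257 miRNAs then tested, 112 to 146 were called in either direction.

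Without non-treated replicate 3, 7 scalings called 4 (quantile) to 17 (spike-in) of the 17 members lower. Of all 257 miRNAs they called 55 (75th percentile of all miRNAs) to 205 (no scaling) lower, with 63 for quantile and 201 for spike-in. With no scaling and spike-in scaling the median of all miRNAs was -1.39 and -1.12. The difference of miR-494 there ran from -0.69 to 1.03. The cause was not tested.

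With the replicate number as a block, 0 members were called lower and 1 higher, with a median of -1.29, and 108 of all 236 miRNAs were called. Same-numbered arrays deviated with correlations of -0.06, -0.06 and 0.18, against -0.15 to 0.15 for arrays of different numbers. With so few arrays, these values cannot show whether the numbers pair the samples. The slide row as a block gave 0, 1 and -1.23, with 121 of all 236 miRNAs called. By the stricter detection rule (probes above background on a share of at least 0.5 of the spots) members detected were 15, 14, 1 and 16 on non-treated replicates 1 to 4 and 1 on each array labelled treated. Signals under the floor limit the folds to bounds.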
